A study of Mus musculus with 16 samples.

Results

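LIM homeobox genes encode transcription factors that carry a DNA-binding homeodomain behind a pair of LIM domains, zinc fingers that bind other proteins. The LIM domains recruit LDB cofactors, and the genes are best known for setting the identity of motor neurons, forebrain and limb regions, pituitary and kidney. In the mouse jaw, Lhx6 and Lhx8 (also called Lhx7) mark the oral mesenchyme derived from the neural crest, from which the dental papilla forms, and Isl1 marks the oral epithelium at the site of the incisors. The genes described here were listed by family membership and not by a cut on their signals, though with earlier results of these data known. They are Isl1, Isl2, Lhx1, Lhx2, Lhx3, Lhx6, Lhx8, Lhx9, Lmx1a and Lmx1b, 10 genes in all. Of these, 9 had a probe set with no other gene symbol, 1 each, among 19938 genes measured in that way. Lmx1a, which acts in the roof plate of the neural tube and in midbrain dopamine neurons, was named for no probe set in the annotation used here and is not analysed here. Lhx4 and Lhx5, a further pair of family members, are given beside them.

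The signals came from 8 mandibular first molar, 4 maxillary first molar and 4 lower incisor samples. Each sample was RNA pooled from 4 tooth germs that were dissected from wild-type C57Bl6 embryos at E14.5, that is embryonic day 14.5, with no treatment in any group. It was hybridized to 1 Affymetrix Mouse Gene 1.0 ST array. The design asked how molars differ from incisors and how lower molars differ from upper ones. Levels are log2 signals after RMA, so that a difference of 1 is a doubling, and a difference is always the first named tooth type minus the second. The median over all probe sets, the array median, was 6.80 to 6.99 in the 16 samples. Lhx1, Lhx3 and Lhx9 lay below it in all samples and Isl1 lay below it in all molars. Isl2, and Lhx2 in molars, lay near or below it. Whether signals in this low range mean expression was not tested. A gene passed at a Benjamini-Hochberg adjusted p under 0.1, over all probe sets tested by limma, with a fold change above 1.2.

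By their values, though by no label, the samples formed a pair of sets. Over all probe sets, the median correlation of mandibular molars 5 to 8 was 0.9942 with the maxillary molars, against 0.9898 with mandibular molars 1 to 4. Mandibular molars 1 to 4 had a median of 0.9902 with the lower incisors, against 0.9861 for mandibular molars 5 to 8. The comparison of maxillary molars with lower incisors therefore lies across both sets, and there tooth type and sample set can be told apart only through the mandibular molars, which occur in both. A whole germ holds epithelium, mesenchyme and adjoining tissue, and fewer cells of a type cannot be told apart from less RNA per cell. Epithelial markers (5 of 6 listed genes measured) and mesenchymal markers (5 of 5) lay above a log2 signal of 5 in samples of every tooth type, and so did those of neurons, Schwann cells, skeletal muscle and cartilage. The summed signal of 6 muscle markers was 1485 to 4646 in mandibular molars, 611 to 1342 in maxillary molars and 4335 to 5320 in lower incisors. That of 5 cartilage markers was 1161 to 1577 in mandibular molars, 1374 to 1543 in maxillary molars and 1316 to 3286 in lower incisors. That of 8 neuronal markers was 835 to 1375 in mandibular molars, 717 to 836 in maxillary molars and 1133 to 1709 in lower incisors. These sums are of unlogged signals, so that the strongest marker weighs most. Among the cartilage markers this was Sox9, at mean log2 signals of 9.51 in mandibular molars, 9.84 in maxillary molars and 9.68 in lower incisors. Acan, by contrast, averaged 6.15, 5.89 and 8.42 in the same order.

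The promoters of 3 genes are shown as examples. They were picked by hand among genes with a window at the outer end of the annotated gene. Isl1 and the cofactor Lmo1 were higher in incisors than in molars, and Lhx8 was higher in molars. Each sequence is the 250 bases before the start site of the RefSeq gene in GRCm38.p6, on the minus strand, 5′ to 3′ of the gene. Capitals mark TAAT, the core recognized by many homeodomains, read on the strand shown, and TAATTA, which contains it on both strands.
Isl1, chr13:116309689-116309938: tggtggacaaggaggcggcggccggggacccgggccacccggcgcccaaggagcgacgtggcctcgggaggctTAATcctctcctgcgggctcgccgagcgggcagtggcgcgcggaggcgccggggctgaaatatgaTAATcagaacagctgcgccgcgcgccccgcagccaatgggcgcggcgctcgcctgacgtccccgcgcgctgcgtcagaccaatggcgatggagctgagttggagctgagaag
Lmo1, chr7:109175208-109175457: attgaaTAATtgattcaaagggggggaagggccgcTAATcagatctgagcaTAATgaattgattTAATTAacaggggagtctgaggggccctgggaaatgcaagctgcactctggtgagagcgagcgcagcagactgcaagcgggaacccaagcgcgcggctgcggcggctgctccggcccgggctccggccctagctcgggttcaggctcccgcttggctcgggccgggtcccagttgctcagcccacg
Lhx8, chr3:154330561-154330810: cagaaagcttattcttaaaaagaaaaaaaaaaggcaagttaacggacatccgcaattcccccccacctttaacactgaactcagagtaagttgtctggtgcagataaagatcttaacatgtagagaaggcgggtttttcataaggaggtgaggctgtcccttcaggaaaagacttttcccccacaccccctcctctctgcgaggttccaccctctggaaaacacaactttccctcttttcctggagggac

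Counted on both strands, TAAT occurred 2 times in the Isl1 window, 5 times in the Lmo1 window and 0 times in the Lhx8 window. Of 32851 promoter windows of that length, 54.9% held TAAT on either strand and 4.84% held TAATTA. The Isl1 window held 33 CpG dinucleotides, the Lmo1 window 17 and the Lhx8 window 4, beside a median of 6 over all windows (quartiles 2 and 16). Other windows did not keep to these directions. That of Lmo4, a cofactor gene higher in lower incisors, also lay at the outer end and held 0 TAAT and 44 CpG. Those of Lhx6, higher in molars, lay inside its annotated span and were not printed. TAAT occurred 3 times in that at chr2:36104061-36104310. A match of letters is a description of the window only.

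**Figure D1:**
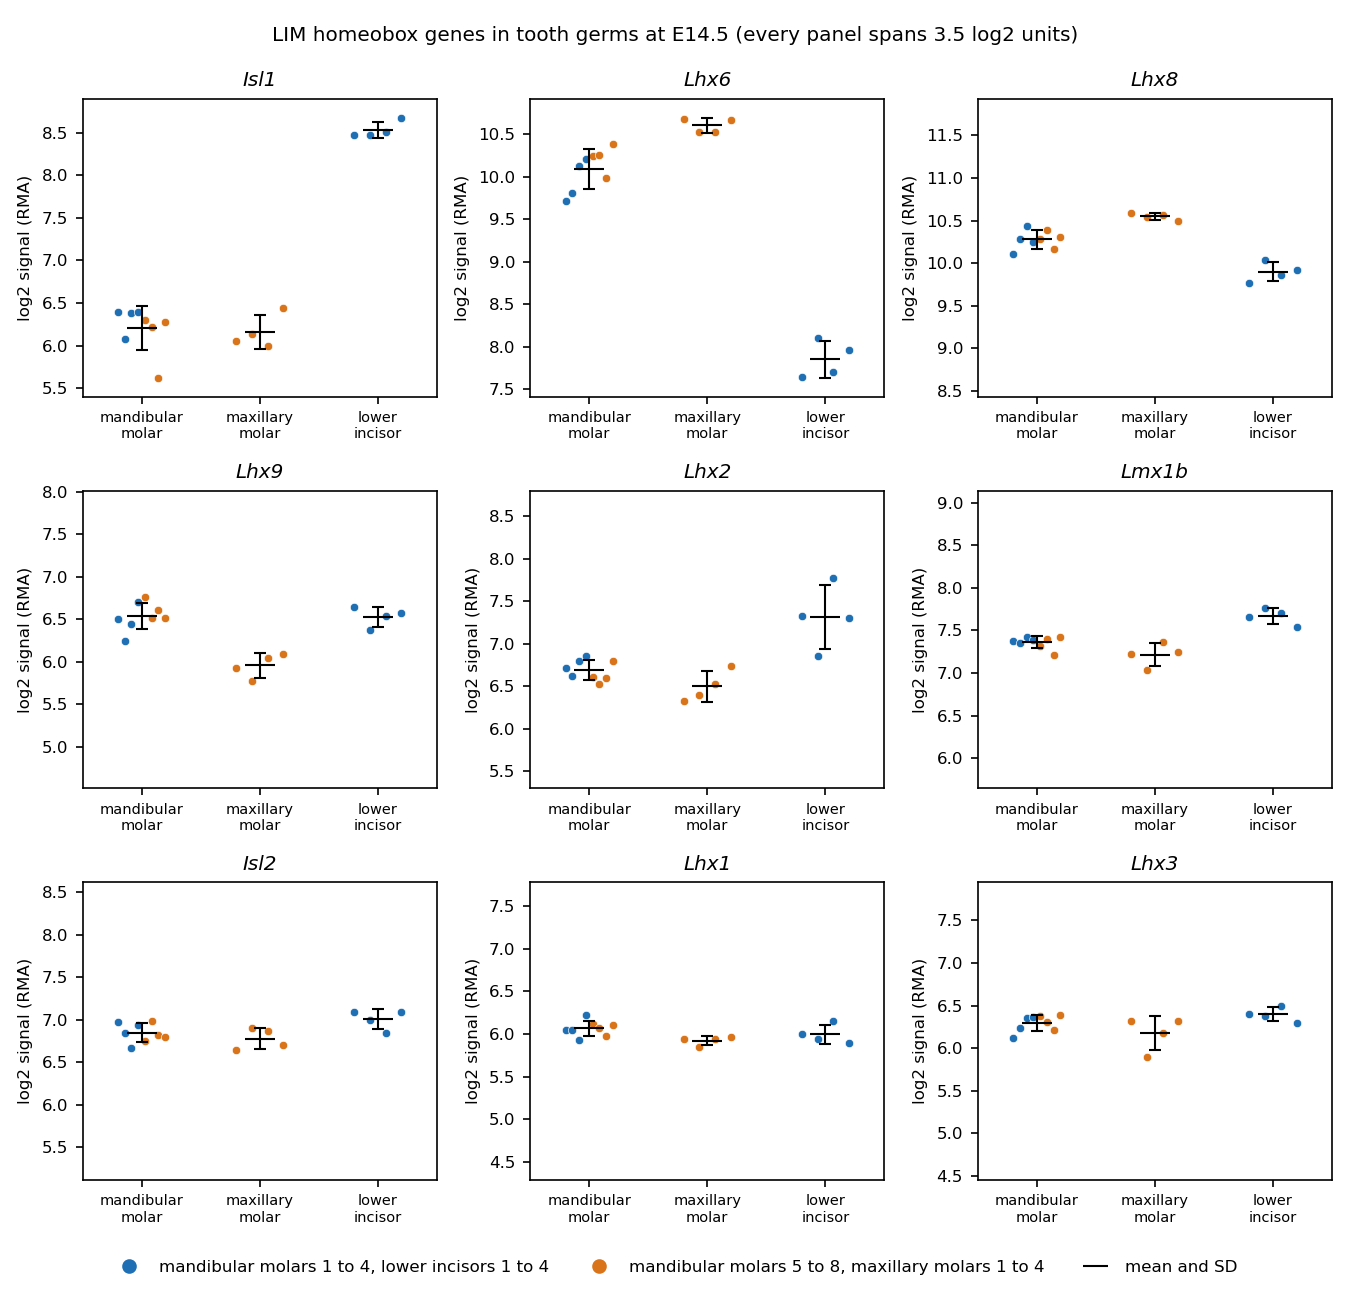
Log2 signal after RMA of the 9 measured LIM homeobox genes, 1 point per sample, in 8 mandibular molar, 4 maxillary molar and 4 lower incisor samples, with the mean and SD in black and the sample sets in colour; every panel spans the same number of log2 units. Isl1 lies at 5.62 to 6.44 in molars of both jaws and at 8.47 to 8.68 in incisors, whereas Lhx6 lies at 9.72 to 10.68 in molars and at 7.65 to 8.10 in incisors.

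Isl1 and Lhx6 showed the largest differences of the family between molars and incisors, in opposite directions. Between mandibular molars and lower incisors 5 of the 9 measured genes passed. Of these, 2 were higher in mandibular molars (Lhx6 and Lhx8) and 3 were higher in lower incisors (Isl1, Lhx2 and Lmx1b). Over all 29258 probe sets tested 4.93% passed, 2.75% with a higher signal in mandibular molars and 2.18% with a higher signal in lower incisors. Many of these probe sets have no gene symbol, whereas the 9 genes are counted by 1 named probe set each. With 1 probe set per gene the share was larger: 989 of 17309 passed higher in mandibular molars and 706 higher in lower incisors. The median absolute log2 difference was 0.31 over the 9 genes and 0.11 over all probe sets tested. The groups did not overlap for 4 of the 9 genes, against 3.69% of all probe sets. At a fold change above 2, 2 of the 9 genes passed (Isl1 and Lhx6), against 0.506% of all probe sets.

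The Isl1 probe set read 6.39, 6.08, 6.38, 6.39, 6.30, 6.22, 5.62 and 6.28 in mandibular molars 1 to 8. It read 8.47, 8.48, 8.51 and 8.68 in the 4 lower incisors. Every incisor sample thus lay far above every molar sample, and the incisors differed little among themselves. Isl1, which in other tissues of the mouse acts in motor and sensory neurons and in heart progenitors, averaged 6.21 ± 0.26 in mandibular molars (SD, n = 8) and 8.54 ± 0.10 in lower incisors (SD, n = 4). Its difference was -2.33 on the log2 scale (SE 0.13, limma adjusted p = 4.61e-07), a fold change of 5.02. The neuronal marker Stmn2, a protein of growing axons, was also lower in mandibular molars by a log2 difference of -1.78 (SE 0.26, limma adjusted p = 0.0019), and Nefl, a neurofilament subunit, was higher in them by 1.42 (SE 0.29, limma adjusted p = 0.0166). The other 6 neuronal markers measured did not pass. Of 3 Schwann cell markers measured, Sox10 (-0.36, SE 0.10, limma adjusted p = 0.0683) and Foxd3 (-0.26, SE 0.06, limma adjusted p = 0.0236) were lower in mandibular molars and Erbb3 (-0.00) did not pass. The part of nerve tissue in the Isl1 difference was not tested.

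Lhx6 showed the reverse order. Its signal was 9.72, 9.81, 10.13, 10.21, 10.24, 10.26, 9.98 and 10.38 in mandibular molars 1 to 8, against 7.65, 8.10, 7.70 and 7.96 in lower incisors. The lowest molar sample was thus well above the highest incisor sample. The mean was 10.09 ± 0.23 in mandibular molars (SD, n = 8) and 7.85 ± 0.21 in lower incisors (SD, n = 4), a log2 difference of 2.24 (SE 0.13, limma adjusted p = 7.96e-07) and a fold change of 4.72. The mesenchymal marker Pax9, a paired-box factor that tooth development needs, was likewise higher in mandibular molars, by 1.14 (SE 0.12, limma adjusted p = 0.000155). The other 4 mesenchymal markers, Msx1, Prrx1, Twist1 and Lum, did not pass in this comparison, and their log2 differences were -0.29 to 0.16. The summed signal of all 5 was 10287 to 11560 in mandibular molars and 9174 to 10363 in lower incisors.

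Lhx8, the closest relative of Lhx6 and a gene of the same oral mesenchyme, differed in the same direction by a smaller amount. It read 10.11, 10.28, 10.44, 10.25, 10.28, 10.39, 10.16 and 10.31 in mandibular molars 1 to 8, against 9.77, 10.04, 9.86 and 9.92 in lower incisors. All molar values lay above all incisor values. The log2 difference was 0.38 (SE 0.07, limma adjusted p = 0.00979), a fold change of 1.30.

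Lhx2, a factor of eye and forebrain development and of hair follicle stem cells, was higher in lower incisors. Its values were 6.53, 6.67 and 6.85 in mandibular molars (lowest, median and highest of 8), against 7.33, 6.85, 7.77 and 7.30 in lower incisors. Incisor sample 2 lay at the level of the highest molar sample and the other 3 incisors lay above all molars. The log2 difference was -0.62 (SE 0.13, limma adjusted p = 0.0197). Lmx1b, which patterns the dorsal limb and is needed in podocytes of the kidney, read 7.21, 7.38 and 7.42 in mandibular molars (lowest, median and highest of 8), against 7.66, 7.76, 7.71 and 7.54 in lower incisors. The groups did not overlap, and the log2 difference was -0.31 (SE 0.06, limma adjusted p = 0.00969). In the same comparison 4 of 5 cartilage markers and 3 of 6 muscle markers were higher in lower incisors, and 0 of 5 epithelial markers passed by limma. The part of these tissues in the values of Isl1, Lhx2 and Lmx1b was not tested.

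Isl2, Lhx1, Lhx3 and Lhx9 did not pass between mandibular molars and lower incisors. For Lhx9, a factor of gonad formation, the log2 difference was 0.01 with a 95% interval of -0.18 to 0.20. For Isl2, which acts in motor neurons and retinal ganglion cells, it was -0.16 (95% interval -0.31 to 0.00). For Lhx1, needed for head and kidney development, it was 0.07 (-0.07 to 0.21), and for Lhx3, a factor of pituitary and motor neurons, -0.10 (-0.24 to 0.04). Of the further family members, Lhx4, which acts with Lhx3 in the pituitary, had a log2 difference of -0.21 (-0.38 to -0.05, limma adjusted p = 0.16) and Lhx5, a forebrain factor, of -0.07 (-0.24 to 0.11).

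Within the sample set that holds the incisors, that is with mandibular molars 1 to 4 only, Isl1 (-2.22, limma adjusted p = 2.29e-05) and Lhx6 (2.12, limma adjusted p = 0.000314) passed. In that fit Lhx8 (0.37, adjusted p = 0.134), Lmx1b (-0.28, adjusted p = 0.122) and Lhx2 (-0.56, adjusted p = 0.269) did not pass, at differences close to those over all 8 molars. With all tooth types in 1 fit and the sample set as a block, all 5 genes passed. The value of Lhx4 turned on the sample set: it was -0.12 with mandibular molars 1 to 4 only (adjusted p = 0.753) and -0.31 with mandibular molars 5 to 8 only, where it passed (adjusted p = 0.0215).

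**Figure D2:**
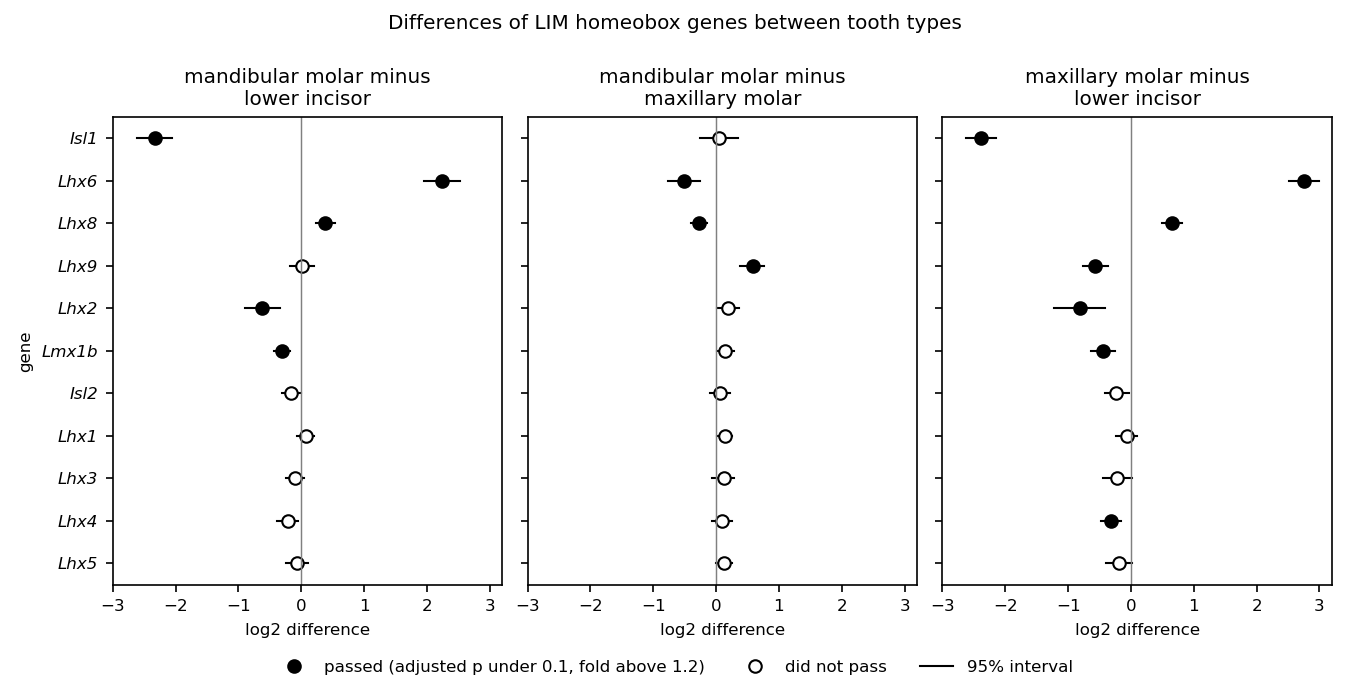
Log2 difference of the 9 LIM homeobox genes and of Lhx4 and Lhx5 in the 3 comparisons, with the 95% interval from limma as a line; filled points passed (adjusted p under 0.1 and fold above 1.2), open points did not. Between mandibular molars and lower incisors Isl1 stands at -2.33 and Lhx6 at 2.24, whereas between the molars of both jaws no gene exceeds 0.58 in size.

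Between mandibular and maxillary molars the differences were smaller, and Lhx9 had the largest. Of the 9 genes 3 passed: Lhx9 was higher in mandibular molars, and Lhx6 and Lhx8 were higher in maxillary molars. Over all 29068 probe sets tested 2.18% passed, 1.01% with a higher signal in mandibular molars and 1.18% with a higher signal in maxillary molars. With 1 probe set per gene the share was larger: 377 of 17193 passed higher in mandibular molars and 413 higher in maxillary molars. The groups did not overlap for 3 of the 9 genes, the same 3, against 4.10% of all probe sets. The median absolute log2 difference was 0.14 over the 9 genes, close to the 0.10 over all probe sets tested. At a fold change above 2, 0 of the 9 genes and 0.196% of all probe sets passed by limma.

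The Lhx9 probe set read 6.50, 6.25, 6.45, 6.70, 6.76, 6.52, 6.61 and 6.52 in mandibular molars 1 to 8, against 5.93, 5.77, 6.05 and 6.09 in maxillary molars. All mandibular samples lay above all maxillary ones, and all of these values lay below the array medians. The means were 6.54 ± 0.16 in mandibular molars (SD, n = 8) and 5.96 ± 0.15 in maxillary molars (SD, n = 4). The log2 difference was 0.58 (SE 0.09, limma adjusted p = 0.00789), a fold change of 1.49. With mandibular molars 5 to 8 only, which belong to the sample set of the maxillary molars, it was 0.64 (limma adjusted p = 0.0193). With lower incisors at 6.53 ± 0.12 (SD, n = 4), the means of both lower teeth lay 0.01 apart and that of the upper molar was lower.

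Lhx6 and Lhx8 had their highest levels in the maxillary molars. Lhx6 read 10.68, 10.53, 10.53 and 10.67 in the 4 maxillary molars, above all mandibular molars, of which the highest was 10.38. Its log2 difference, mandibular minus maxillary, was -0.51 (SE 0.11, limma adjusted p = 0.0509). Lhx8 read 10.59, 10.54, 10.57 and 10.49 in maxillary molars, against at most 10.44 in mandibular molars. Its difference was -0.27 (SE 0.06, limma adjusted p = 0.056), a fold change of 1.21 that lay just past the threshold. The adjusted p-values of both genes lay near the threshold of 0.1. With mandibular molars 5 to 8 only, Lhx6 (-0.39, adjusted p = 0.113) and Lhx8 (-0.26, adjusted p = 0.103) did not pass, and Lhx9 was then the only gene of the 9 that did. Lhx6 also did not pass without maxillary molar 1 (-0.49, adjusted p = 0.188), 2 (-0.53, adjusted p = 0.133), 3 (-0.54, adjusted p = 0.113) or 4 (-0.49, adjusted p = 0.144). Lhx8 did not pass without maxillary molar 1 (-0.26, adjusted p = 0.203), 2 (-0.27, adjusted p = 0.168) or 3 (-0.26, adjusted p = 0.149), nor without mandibular molar 1 or 7 (-0.25 each), where its fold change was below the threshold.

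Isl1 gave 6.05, 6.14, 6.00 and 6.44 in maxillary molars, within the range of the mandibular molars apart from the highest, maxillary molar 4. Its log2 difference between the molars was 0.05 (95% interval -0.25 to 0.35). Lhx2 (0.19, 0.01 to 0.37, limma adjusted p = 0.27), Lmx1b (0.14, 0.01 to 0.28, limma adjusted p = 0.277) and Lhx1 (0.14, 0.02 to 0.26, limma adjusted p = 0.239) did not pass, nor did Isl2 (0.07, -0.09 to 0.22) and Lhx3 (0.12, -0.06 to 0.29). The differences of Lhx4 (0.10, -0.06 to 0.26) and Lhx5 (0.12, -0.00 to 0.25) did not pass either. Skeletal muscle markers moved with this comparison: 5 of 6 were higher in mandibular molars, with a median log2 difference of 0.96. Of 8 neuronal markers 2 were higher in mandibular molars, Nefl (2.22, SE 0.25, limma adjusted p = 0.000802) and Nefm (0.97, SE 0.25, limma adjusted p = 0.0873), and 0 of 3 Schwann cell markers passed by limma. The part of muscle and nerve in the values of Lhx6, Lhx8 and Lhx9 was not tested. No epithelial marker of 5 passed, and of the 5 mesenchymal markers Pax9 passed, at 0.37 (SE 0.07, limma adjusted p = 0.0157).

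Between maxillary molars and lower incisors 6 of the 9 genes passed, but 27.8% of all 29075 probe sets did so too, 14.4% with a higher signal in maxillary molars and 13.4% with a higher signal in lower incisors. With 1 probe set per gene, 2932 of 17237 passed higher in maxillary molars and 2208 higher in lower incisors. This comparison shares its samples with the other 2. Lhx6 (2.75, SE 0.11) and Lhx8 (0.65, SE 0.07) were higher in maxillary molars, at limma adjusted p-values of 6.18e-06 and 0.000633. Isl1 (-2.38, SE 0.10, limma adjusted p = 8.85e-06), Lhx2 (-0.81, SE 0.18, adjusted p = 0.013), Lhx9 (-0.57, SE 0.09, adjusted p = 0.00364) and Lmx1b (-0.45, SE 0.08, adjusted p = 0.00679) were higher in lower incisors. The groups did not overlap for 6 of the 9 genes, the same 6, against 32.3% of all probe sets. The median absolute log2 difference was 0.57 over the 9 genes and 0.19 over all probe sets tested. At a fold change above 2, Isl1 and Lhx6 passed, against 1.82% of all probe sets. With all tooth types in 1 fit and the sample set as a block, 5 of the 6 passed: Isl1 at -2.17, Lhx6 at 2.50, Lhx8 at 0.63, Lhx9 at -0.69 and Lmx1b at -0.40. Lhx2 did not (-0.70, limma adjusted p = 0.124). Isl2 (-0.23), Lhx1 (-0.07) and Lhx3 (-0.22) did not pass, although Isl2 passed without lower incisor 3 (-0.28, adjusted p = 0.0495) or maxillary molar 2 (-0.27, adjusted p = 0.0812). Lhx4, at -0.31 (SE 0.07, limma adjusted p = 0.0125), passed, but with the sample set as a block its difference was -0.12 (adjusted p = 0.688). Lhx4 also did not pass after other normalizations, cyclic loess (-0.25) and median centring (-0.26), where its fold change was below the threshold. Lhx5 was at -0.19 and did not pass. Markers of other cells also differed in this comparison: 6 of 6 muscle markers (median log2 difference -1.86), 4 of 5 cartilage markers, 3 of 8 neuronal markers and 1 of 3 Schwann cell markers were higher in lower incisors, and 3 of 5 epithelial markers (Epcam, Cdh1 and Shh) were higher in maxillary molars. Of 5 mesenchymal markers, 2 were higher in maxillary molars and 1 was higher in lower incisors. Their part in the values of the LIM homeobox genes was not tested.

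The order of the tooth types thus differed between genes. For Lhx6 and Lhx8 it was maxillary molar, mandibular molar, lower incisor, with the lower incisor apart from both molars and a step between the molars whose call depended on single samples. For Isl1, Lhx2 and Lmx1b the lower incisor came first and the molars did not pass against each other, with smaller steps for Lhx2 and Lmx1b than for Isl1. For Lhx9 the maxillary molar was lowest and the lower teeth did not pass against each other. For Isl2, Lhx1 and Lhx3 no neighbours in the order passed.

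**Figure D3:**
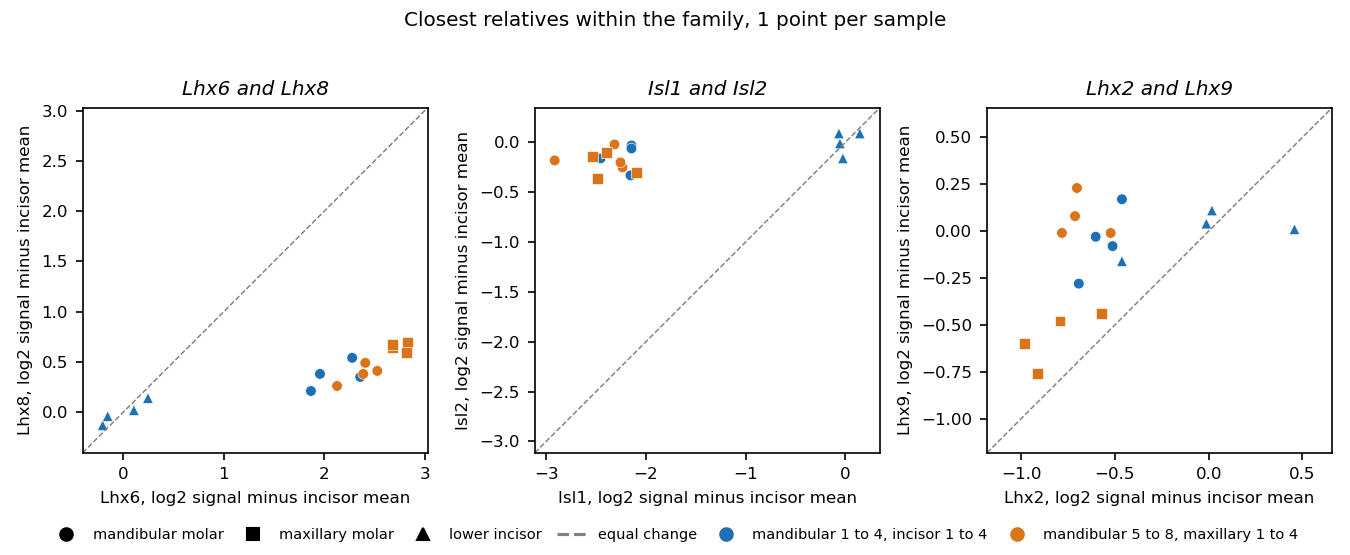
Log2 signal minus the mean of the lower incisors for both genes of 3 pairs of close relatives, 1 point per sample, with tooth type by symbol, sample set by colour and a dashed line where both genes would differ by the same amount. The mandibular molars lie on average at 2.24 for Lhx6 and 0.38 for Lhx8, at -2.33 for Isl1 and -0.16 for Isl2, and at -0.62 for Lhx2 and 0.01 for Lhx9.

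Close relatives in the family differed by unequal amounts between mandibular molars and lower incisors. In these pairs Isl2 lay near the array medians and Lhx9 below them. For each pair the log2 difference between both genes was taken within each sample and compared between tooth types, in 9 tests (3 pairs and 3 comparisons), by a two-sided exact permutation test over samples. Between mandibular molars and lower incisors Lhx6 differed by 1.86 more than Lhx8 (exact permutation p = 0.00202, adjusted p = 0.00606). Isl1 differed by -2.17 relative to Isl2, and Lhx2 by -0.63 relative to Lhx9, each with the same exact permutation p, the smallest that these group sizes allow, and with no overlap between the groups. Between mandibular and maxillary molars Lhx2 differed by -0.39 relative to Lhx9 (exact permutation p = 0.00606, adjusted p = 0.0136). Lhx6 differed there by -0.24 relative to Lhx8 (exact permutation p = 0.0384, adjusted p = 0.0494). The groups overlapped for this pair. Its difference was -0.12 with mandibular molars 5 to 8 only (exact permutation adjusted p = 0.161), and it did not pass without maxillary molar 1 (-0.23, exact permutation adjusted p = 0.117) or 4 (-0.20, exact permutation adjusted p = 0.125). For Isl1 and Isl2 the value was -0.02 (exact permutation p = 0.919).

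Between maxillary molars and lower incisors, where the smallest exact permutation p is 0.0286, the relative difference was 2.10 for Lhx6 and Lhx8 and -2.15 for Isl1 and Isl2 (exact permutation p = 0.0286, adjusted p = 0.0429 for each). It was -0.24 for Lhx2 and Lhx9 (exact permutation p = 0.143, adjusted p = 0.161). With each sample left out that value was -0.34 to -0.09 and passed in 1 of 8 tests: it was -0.34 without lower incisor 2 (exact permutation adjusted p = 0.0367) and -0.09 without lower incisor 3 (exact permutation adjusted p = 0.386). The pair Lmx1a and Lmx1b was not tested, since no probe set was matched to Lmx1a here.

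Genes whose signals were most like those of 4 members were sought among 17327 genes, by the root mean square difference of mean-centred log2 signals over the 16 samples. Nearest to Isl1 were Cacna2d3, a calcium channel subunit (0.24), Irx4, an Iroquois homeobox gene of the heart ventricle (0.29), and Dpep1, a membrane dipeptidase (0.36). The root mean square of Isl1 itself about its mean was 1.03. Cacna2d3 averaged 7.05 in mandibular molars, 6.82 in maxillary molars and 9.12 in lower incisors.

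Nearest to Lhx6 were Adcy8, a calcium-stimulated adenylyl cyclase (0.21), Itgbl1, an integrin beta-like protein (0.22), and Cntn6, a contactin of neural cell adhesion (0.25), beside a root mean square of 1.08 for Lhx6 itself. Adcy8 averaged 8.07 in mandibular molars, 8.63 in maxillary molars and 5.95 in lower incisors. Nearest to Lhx8 were Grk5, a kinase of G protein-coupled receptors (0.09), Lonrf2 (0.10) and Lonrf3 (0.11), beside 0.25 for Lhx8 itself. Nearest to Lhx9 were Lrrc25 (0.15), Ikzf1, a zinc finger factor of lymphocytes (0.17), and Jakmip2 (0.17), beside 0.28 for Lhx9 itself, so that the likeness was looser for Lhx9 in proportion to its own spread. These likenesses describe the 16 samples, which share tooth type and sample set.

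**Figure D4:**
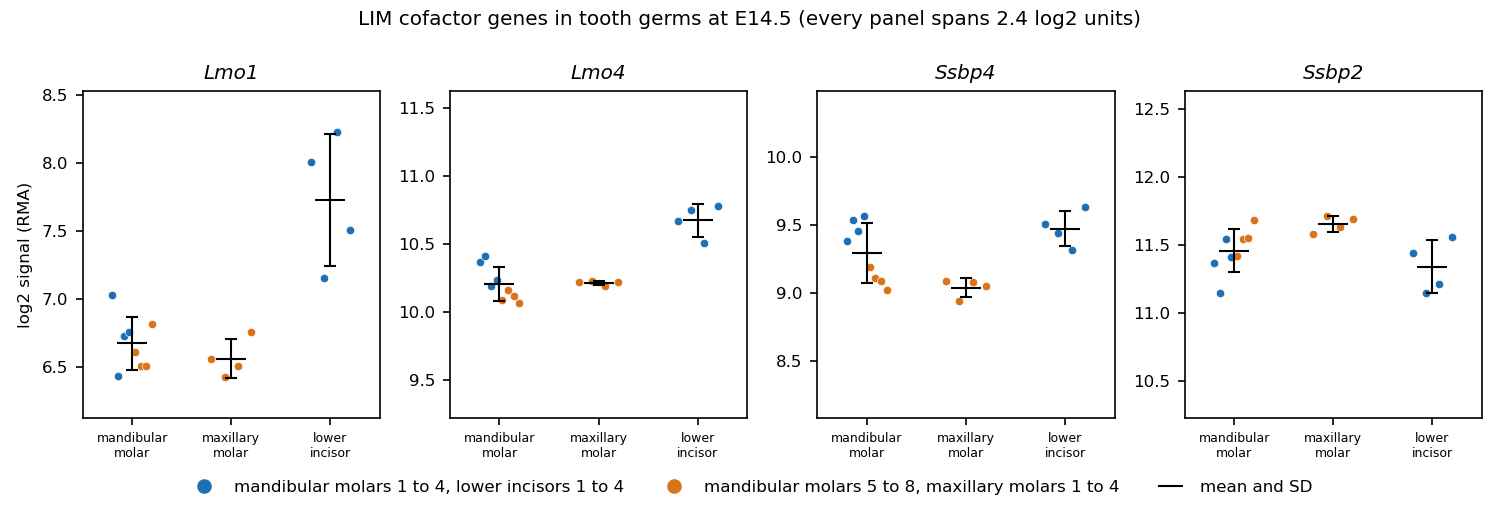
Log2 signal after RMA of 4 LIM cofactor genes, 1 point per sample, by tooth type, with mean and SD in black and sample sets in colour; every panel spans the same number of log2 units. Lmo1 lies at 7.16 to 8.23 in lower incisors, above all molars, while Ssbp4 lies higher in mandibular molars 1 to 4 (9.38 to 9.57) than in mandibular molars 5 to 8 (9.02 to 9.19).

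The proteins that LIM homeodomain factors work with were measured through 10 genes. Ldb1 and Ldb2 encode the bridging cofactors, Ssbp2, Ssbp3 and Ssbp4 proteins that bind and stabilize them, Lmo1 to Lmo4 LIM-only proteins that compete for them, and Rlim a ubiquitin ligase that acts on them. Between mandibular molars and lower incisors 2 of 10 passed, beside the 4.93% of all probe sets given above, and both were LIM-only genes higher in lower incisors. Lmo1 read 6.44, 6.67 and 7.03 in mandibular molars (lowest, median and highest of 8), against 8.01, 7.16, 8.23 and 7.51 in lower incisors. The groups did not overlap, and the incisors spread widely. The log2 difference was -1.05 (SE 0.17, limma adjusted p = 0.00446). Lmo4 read 10.07, 10.18 and 10.41 in mandibular molars (lowest, median and highest of 8), against 10.67, 10.75, 10.51 and 10.78 in lower incisors, again without overlap, a difference of -0.47 (SE 0.08, limma adjusted p = 0.00422). With mandibular molars 1 to 4 only, 0 of 10 passed by limma, at means of 6.74 for Lmo1 in these 4 molars against 7.73 in lower incisors, and of 10.30 for Lmo4 in these molars against 10.68 in lower incisors. With the sample set as a block 2 of 10 passed. Of the cartilage markers 4 of 5, and of the muscle markers 3 of 6, were also higher in lower incisors, and their part in these values was not tested.

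Between mandibular and maxillary molars 0 of 10 cofactor genes passed by limma. There 2 were at an unadjusted p under 0.05, and the methods' t-test also gave 0. Between maxillary molars and lower incisors 5 of 10 passed, 1 of them higher in maxillary molars and 4 higher in lower incisors. In this comparison 27.8% of all probe sets passed. Ssbp2 was higher in maxillary molars by 0.32 (SE 0.10, limma adjusted p = 0.0399). Lmo1 (-1.16), Lmo4 (-0.46) and Ssbp4 (-0.43, SE 0.08, limma adjusted p = 0.00582) were among those higher in lower incisors. Ssbp4 averaged 9.48 in lower incisors and 9.49 in mandibular molars 1 to 4. It averaged 9.04 in maxillary molars and 9.10 in mandibular molars 5 to 8. For Ssbp2 these means were 11.34, 11.37, 11.66 and 11.55 in the same order. For both genes the mandibular molars thus lay near the other tooth type of their own sample set. With the sample set as a block 1 of the 10 passed. Ldb1, the main bridging cofactor, differed by -0.15 (SE 0.06, limma adjusted p = 0.193) between mandibular molars and lower incisors and by -0.00 (95% interval -0.11 to 0.10) between the molars.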

How the data were processed

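RNA of 16 pools of 4 tooth germs was hybridized to 1 array each. Per the labels, the authors deposited log2 signals of 35556 probe sets made with RMA in Affymetrix Expression Console 1.1, which corrects background, normalizes by quantiles and summarizes by median polish; these values were used as they were. Probe sets were named by the platform annotation (21789 with 1 symbol, 1621 with several, 12146 with none). Kept were probe sets whose log2 signal exceeded 5 in 1 or more of the samples compared, and lmFit and eBayes (limma 3.58.1, R 4.3.3) were fitted to the samples of each comparison. Intervals are at 95%. All 4 incisor samples were used. The study left out 1 of its 4, which it does not name, for a technical problem at the hybridization step that gave high background. That array is therefore among the incisor values given here. The animals behind each pool are not given, so that p-values reflect only the spread between pools, and the number of arrays limits the precision. The members, lists and tests were chosen with earlier results of these data known. Named are all members, Lhx4 and Lhx5, up to 4 cofactor genes with the lowest adjusted p, the 3 most alike genes of 4 members, and marker genes; others (Ldb1) were chosen after their values were seen. On simulated data, 18 of 50 probe sets changed by 0.3 and 39 of 50 changed by 0.5 were recovered between mandibular molars and incisors, and 19 and 34 of 50 between the molars. The simulated samples varied independently, without the sample sets, and probe sets of the lowest means were not changed. These shares may thus not hold for the real samples. Alternatives were other filters, a floor, normalizations, tests, variance models, sample sets, a replicate block and each sample left out. Promoters came from RefSeq (GRCm38.p6), and all 10 listed genes had one.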

Additional observations from a re-analysis of the deposited data

Results flagged for a closer look

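Isl1 in mandibular molar 7, at a log2 signal of 5.62, lay below the other 7 mandibular molars, which were at 6.08 to 6.39. Its gap to the nearest sample was 0.599 of the whole range of the group. Of 33 groups of samples examined in this way 1 stood out, and chance gives about 1 in 20. Without any 1 sample the Isl1 difference between mandibular molars and lower incisors was -2.35 to -2.24 and passed in 12 of 12 fits.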

How the results depend on the processing

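Of 822 alternative values of single LIM homeobox genes 782 kept their sign and their side of the threshold, 26 no longer passed, 3 newly passed and 11 changed sign, none of these 11 past the threshold in either fit. The cause of these changes was not tested. The gene counts changed as follows. Between mandibular molars and lower incisors 2 of 9 LIM homeobox genes passed with mandibular molars 1 to 4 only, and 0 of 10 cofactor genes. Between the molars 1 of 9 passed with mandibular molars 5 to 8 only and 1 of 9 with the sample set as a block, 1 to 3 with each sample left out (1 without maxillary molar 1, 2 or 3), and 3 of 10 cofactor genes with mandibular molars 1 to 4 only. In that last fit 2451 of 28910 probe sets were higher in mandibular and 3082 in maxillary molars, against 293 and 342 of 29068 in the main fit. Between maxillary molars and lower incisors 1 of 10 cofactor genes passed with the sample set as a block. Lhx8 between the molars also failed after quantile normalization (-0.24), cyclic loess (-0.25) and array weights (-0.26, by its fold change).

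Values that changed sign were all small. Lhx9 between mandibular molars and lower incisors was -0.05 with mandibular molars 1 to 4 only and with the sample set as a block, and -0.05 to 0.05 with each sample left out. Lhx5 there was -0.11 to 0.02 with each sample left out. Isl1 between the molars was -0.05 with mandibular molars 5 to 8 only and with the sample set as a block. Isl1 relative to Isl2 between the molars was 0.08 with mandibular molars 1 to 4 only and -0.10 to 0.10 with each sample left out. Lhx1 between maxillary molars and lower incisors was 0.03 after quantile normalization and 0.06 after cyclic loess.

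With the replicate number of the titles as a block, 2 of 9 LIM homeobox genes passed between mandibular molars and lower incisors. There Lhx8 (0.37, limma adjusted p = 0.126), Lmx1b (-0.28, adjusted p = 0.176) and Lhx2 (-0.56, adjusted p = 0.156) did not pass and Lhx9 was at -0.05. Between the molars 3 of 10 cofactor genes passed with this block. Of all 29068 probe sets 2636 were then higher in mandibular and 3196 in maxillary molars, so calls rose for all probe sets. Mandibular molars 5 to 8 have no partner in that fit. Same-numbered samples deviated together with correlations of 0.08 to 0.50 (mandibular molars and lower incisors), 0.00 to 0.34 (the molars) and -0.07 to 0.24 (maxillary molars and lower incisors), and in the first of these comparisons mandibular molars 3 and 4 correlated best with their own number and 1 and 2 did not. The labels do not say what a number stands for, and not every pair was over 0.1, so the numbers were not taken as pairs.

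Of all probe sets tested 804 passed with a higher signal in mandibular molars and 637 with a higher signal in lower incisors. This was 276 and 242 with mandibular molars 1 to 4 only, 3468 and 2582 with 5 to 8 only, 288 and 251 with the replicate block and 2640 and 2284 with array weights. Between the molars 293 were higher in mandibular and 342 in maxillary molars, against 2451 and 3082 with mandibular molars 1 to 4 only, 155 and 213 with 5 to 8 only, 110 and 169 with the sample set as a block and 2636 and 3196 with the replicate block. Between maxillary molars and lower incisors 4201 and 3889 became 451 and 440 with the sample set as a block. Centring on the median gave 5188 and 2577 there.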
